A study of Drosophila melanogaster with 12 samples.

Results

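Wings dissected at 18 h and 24 h after puparium formation (APF) were compared by RNAseq, to describe which genes outside the cell cycle changed over the interval in which wing cells pass their final mitosis and leave the cell cycle. The comparison takes the 2 libraries titled 18hAPF and the 2 titled 24hAPF, 4 of the 12 libraries of a time series that also holds L3, 6 h, 36 h and 44 h APF. All animals were *Drosophila melanogaster* of the strain w1118/y,w, hs-FLP; + ; +, with no further treatment named and RNA was isolated from wings pooled by stage. Nothing in the labels says whether the 2 replicates of a timepoint came from separate collections, and the study's methods call them independent. The p-values of the comparison measure a spread between replicates that was estimated over all 12 libraries, not over these 4 alone.

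The 18 h libraries held 6142110 and 3013205 reads on genes and the 24 h libraries 6719725 and 1659208, so that replicate 2 at 24 h APF was the smallest of the 12 libraries. Levels are given as CPM, the reads on a gene scaled to a common total after TMM normalisation, in the order replicate 1 and replicate 2. A floor of 3 counts lay at 0.392 and 0.840 CPM in the 18 h libraries and at 0.386 and 1.53 CPM in the 24 h libraries, and it covers counting error only. Replicates differed at least 2-fold for 304 of 8469 genes at 18 h APF and for 674 at 24 h APF. As a check of the tissue, the wing selector genes *vg* (181 and 242 CPM at 18 h, 315 and 260 CPM at 24 h APF) and *nub* (190 and 141 CPM, then 255 and 157 CPM) were present in all 4 libraries. Neither was past the test. The 16 wing identity genes summed to between 3686 and 4380 CPM.

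Ecdysone is the steroid hormone that times fly metamorphosis: it binds the receptor EcR with its partner Usp, and a cascade of nuclear receptors and other transcription factors relays the pulse to tissue-specific effectors. In the pupal wing a pulse of ecdysone accompanies the last cell divisions, after which the epithelium secretes matrix and cuticle and each cell makes an actin-based hair. Over the same period veins are fixed by EGF receptor, BMP and Notch signalling, the dorsal and ventral surfaces adhere through integrins and basement membrane, and sense-organ precursors along the margin divide asymmetrically to make bristles. Genes were grouped by these roles into lists for hormone response, adhesion, vein fate and bristle fate. The lists were chosen with earlier results of these data known, so shares and medians of lists are descriptions.

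Of 8469 genes tested, 746 (8.81%) were past edgeR's quasi-likelihood test between 18 and 24 h APF, which asks for a Benjamini-Hochberg adjusted p-value under 0.05 and a fitted change of at least 2-fold. At 24 h APF 309 genes (3.65%) were higher and 437 (5.16%) were lower. The cell cycle lists held 92 of the genes that fell and none that rose, and 345 of the genes that fell lay outside them. Between 18 and 24 h APF 40 of 43 DNA replication genes fell (median log2 fold change −2.21), and 43 of 72 genes of mitosis, kinetochore and cytokinesis fell, with a median of −1.35; over all genes tested the median was 0.01. On the deposited RPKM values, tested with limma, the median over all genes was −0.28 and the split of calls moved from 41.4% higher to 14.2% higher, 94 genes against 566. The sliding clamp gene *mus209* (PCNA) had 197 and 293 CPM at 18 h APF and 20.1 and 22.9 CPM at 24 h APF. The mitotic cyclin gene *CycB* had 225 and 200 CPM and then 37.6 and 45.9 CPM. Both libraries of each gene at 24 h APF lay far below both at 18 h APF.

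Of 86 hormone genes tested 7 rose and 4 fell (12.8% past the test), of 165 adhesion genes 13 rose and 1 fell (8.48%), of 135 vein genes 5 rose and 5 fell (7.41%), and of 107 bristle genes 12 rose and 7 fell (17.8%), against 8.81% of all genes. The shares for adhesion and vein genes thus lay near the background. Median log2 fold changes were 0.09 for hormone genes, 0.28 for adhesion genes, 0.20 for vein genes and 0.26 for bristle genes, and on the RPKM values, where all genes are centred below 0, these medians turned to −0.22, −0.12, −0.19 and −0.10. A gene can stand in more than one list, and *Sb* is counted under hormone, adhesion and bristle genes.

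**Figure D1:**
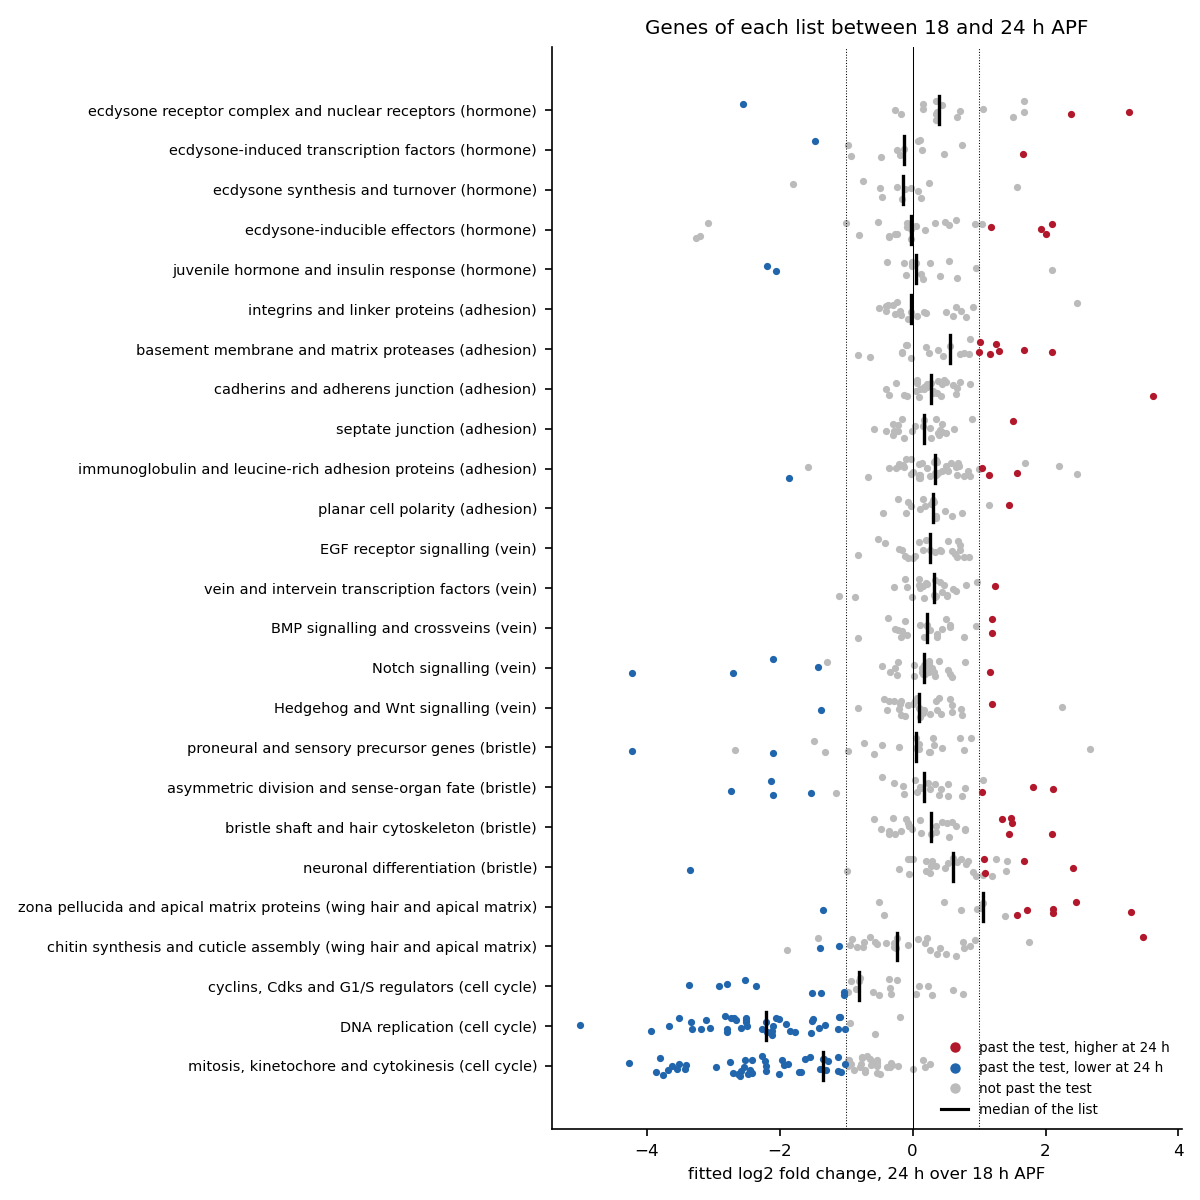
Fitted log2 fold change of each tested gene, 24 h over 18 h APF (x axis), in each list (rows, with the theme in brackets). Points are genes, coloured by whether they were past the test and in which direction, black bars are list medians and dotted lines mark a 2-fold change; the DNA replication list is centred at −2.21, whereas most genes of the hormone, adhesion, vein and bristle lists lie within 2-fold and are grey.

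The changes that rose in these 4 themes were not equal in the replicates at 24 h APF. Of the 34 different genes of the 4 themes that rose, 32 (94.1%) were higher in replicate 1 at 24 h APF than in replicate 2. The share was 66.7% of all 309 genes that rose and 54.1% of all genes tested. Of the 15 different genes of the themes that fell, 8 were higher in replicate 1. The part of depth or of any other difference between these libraries in this pattern was not tested. Without replicate 2 at 24 h APF 390 genes rose and 382 fell, and without replicate 1, which leaves the smallest library as the only one at 24 h APF, 101 rose and 203 fell.

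The ecdysone receptor genes were not past the test, while some genes of the cascade under them were. *EcR* (FBgn0000546, arm 2R) had 241 and 202 CPM at 18 h APF and 196 and 171 CPM at 24 h APF, that is, a fitted log2 change of −0.27 (standard error 0.22, edgeR adjusted p = 0.467). *usp* (FBgn0003964, arm X) had 28.5 and 24.6 CPM and then 39.8 and 26.5 CPM, and was not past the test. Of 18 nuclear receptor and cofactor genes tested, 2 rose and 1 fell (16.7% past the test against 8.81% of all genes). A fitted change above 0 was found for 15 of the 18, and for 4277 of all 8469 genes tested.

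The nuclear receptor genes *Hr4* and *Eip78C*, both known as ecdysone-inducible, rose. *Hr4* (FBgn0264562, arm X) went from 4.31 and 8.96 CPM at 18 h APF to 75.9 and 41.3 CPM at 24 h APF, that is, a fitted log2 change of 3.26 (standard error 0.63, edgeR adjusted p = 0.00583). The groups did not overlap, but the 2 libraries at 24 h APF differed by a wide margin, and the call was lost without replicate 1 at 18 h APF (edgeR adjusted p = 0.0799) or without replicate 1 at 24 h APF (0.0708). *Eip78C* (FBgn0004865, arm 3L) went from 18.5 and 16.2 CPM to 99.4 and 81.6 CPM, a fitted log2 change of 2.38 (standard error 0.25, edgeR adjusted p = 0.000169), and kept its call with each of the 4 libraries left out. It was higher again at 36 h APF, with 657 and 911 CPM, and back at a mean of 94.5 CPM at 44 h APF.

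The nuclear receptor gene *ftz-f1* fell over the interval in which these 2 genes rose. Its protein is known as a competence factor made when the ecdysone titre is low. *ftz-f1* (FBgn0001078, arm 3L) had 41.8 and 56.8 CPM at 18 h APF and 9.53 and 6.12 CPM at 24 h APF, that is, a fitted log2 change of −2.56 (standard error 0.45, edgeR adjusted p = 0.00356). Both libraries at 24 h APF lay below both at 18 h APF, and the adjusted p with a library left out lay between 0.0146 and 0.0415. At 6 h APF its mean level was 1416 CPM.

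*Eip75B*, a further ecdysone-induced nuclear receptor gene, was just outside the threshold. It had 137 and 105 CPM at 18 h APF and 414 and 276 CPM at 24 h APF, with a fitted log2 change of 1.51 and a standard error of 0.46 (edgeR adjusted p = 0.0529). The groups did not overlap, and over the alternatives that keep all libraries the adjusted p ranged from 3.4e-06 to 0.17.

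Of 13 ecdysone-induced transcription factor genes 1 rose and 1 fell (15.4% past the test against 8.81% of all genes). *Blimp-1* (FBgn0035625, arm 3L), which encodes a zinc finger repressor known to act on *ftz-f1*, went from 11.6 and 5.32 CPM to 34.4 and 20.4 CPM, a fitted log2 change of 1.67 (standard error 0.33, edgeR adjusted p = 0.00745). The groups did not overlap, with replicate 1 the higher library at both timepoints, and the call was lost without replicate 2 at 18 h APF (edgeR adjusted p = 0.0566) or without replicate 1 at 24 h APF (0.134). *vri* (FBgn0016076, arm 2L), which encodes a bZIP repressor of the circadian clock that is also needed for wing hairs, went from 68.2 and 50.7 CPM to 22.3 and 20.4 CPM, a fitted log2 change of −1.47 (standard error 0.26, edgeR adjusted p = 0.00411). Its fall kept its call with each library left out (edgeR adjusted p at most 0.0488), and its level was 563 and 434 CPM at 36 h APF.

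The temporal regulators of the pupal stages were not past the test. *Eip93F* (FBgn0264490, arm 3R), which encodes a transcription factor that opens later ecdysone targets in the wing, had 2968 and 3157 CPM at 18 h APF and 5925 and 4333 CPM at 24 h APF (fitted log2 change 0.74, standard error 0.42, edgeR adjusted p = 0.275). Both libraries at 24 h APF were above both at 18 h APF, and the fitted difference was within 2 standard errors of 0. *br*, whose protein marks the larval to pupal switch, was low at both timepoints, with 9.40 and 22.7 CPM and then 5.80 and 12.2 CPM, after a mean of 1213 CPM at 6 h APF.

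Among 27 ecdysone-inducible effector genes 4 rose and none fell (14.8% past the test against 8.81% of all genes). *Sb* (FBgn0003319, arm 3R), the Stubble transmembrane serine protease needed for disc eversion and for straight bristles, had 36.3 and 35.8 CPM at 18 h APF and 174 and 134 CPM at 24 h APF. The fitted log2 change was 2.095 (standard error 0.31, edgeR adjusted p = 0.00143), and it kept its call with each library left out. *ImpE1* went from 16.8 and 23.2 CPM to 81.3 and 70.4 CPM, and *ImpL1* from 41.8 and 49.0 CPM to 182 and 183 CPM; both are named for their induction by ecdysone in imaginal discs. Their replicates were close and the groups stood well apart, with fitted log2 changes of 1.94 and 2.01 (standard errors 0.45 and 0.54, edgeR adjusted p = 0.0155 and 0.0311). *Glut1*, a glucose transporter gene, went from 23.1 and 19.9 CPM to 55.3 and 41.3 CPM (edgeR adjusted p = 0.00716). *ImpL1* lost its call with any of the 4 libraries left out (edgeR adjusted p from 0.0714 to 0.178), *ImpE1* with any but replicate 2 at 24 h APF (0.0705 to 0.135), and *Glut1* without replicate 2 at 18 h APF (0.0705) or replicate 1 at 24 h APF (0.0964).

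No gene of the 12 tested for ecdysone synthesis and turnover was past edgeR's test, with or without the fold threshold, and none was called by DESeq2 or by limma on RPKM, while 2 had an unadjusted p under 0.05. In the juvenile hormone and insulin list 2 of 17 genes fell and none rose (11.8% against 8.81% of all genes). *Jheh2* (FBgn0034405, arm 2R), a juvenile hormone epoxide hydrolase gene, went from 73.1 and 88.4 CPM to 16.9 and 22.9 CPM (fitted log2 change −2.06, standard error 0.36, edgeR adjusted p = 0.00356), and its call was lost without replicate 1 at 24 h APF (0.0692). *CG3837* (FBgn0038279, arm 3R), now named *Sdr* for a secreted decoy of the insulin receptor, went from 14.5 and 16.8 CPM to 2.83 and 4.59 CPM (edgeR adjusted p = 0.0321), and lost its call with any library left out, at adjusted p from 0.0593 to 0.292. *Hr4*, *vri*, *Sb*, *Jheh2*, *EcR*, *usp*, *Eip75B* and *br* overlap an annotated gene on the opposite strand, and the strand setting of the counting is not given in the sources used here.

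**Figure D2:**
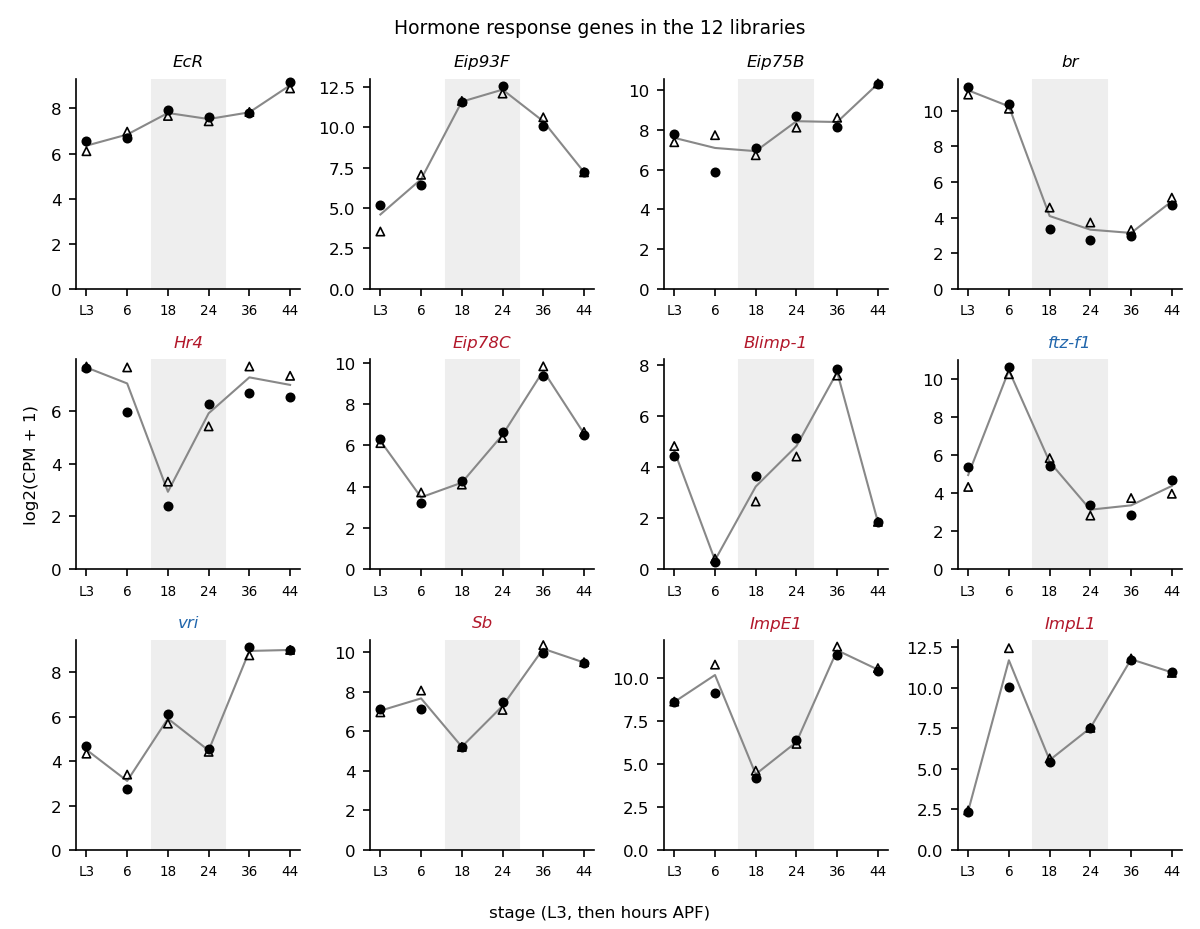
Levels of 12 hormone response genes, as log2(CPM + 1) (y axis), in the 12 libraries by stage (x axis). Filled circles are replicate 1, open triangles replicate 2 and lines the mean of both; the band marks 18 and 24 h APF, and red and blue titles are genes past the test that rose or fell. *Hr4*, *Eip78C*, *Blimp-1*, *Sb*, *ImpE1* and *ImpL1* rose within the band, and *ftz-f1* and *vri* fell within it.

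Of the 14 adhesion genes past the test 7 were genes of the basement membrane and its proteases. Of 23 genes of basement membrane and matrix proteases 7 rose and none fell, with a median log2 fold change of 0.57. The 7 were 30.4% of the list, against 8.81% past the test among all genes. They included *Sb*, described above. *wb* (FBgn0261563, arm 2L), a laminin alpha chain gene, had 159 and 178 CPM at 18 h APF and 486 and 313 CPM at 24 h APF. The fitted log2 change was 1.25 (standard error 0.25, edgeR adjusted p = 0.00726). *BM-40-SPARC* (FBgn0026562, arm 3R), which encodes a collagen-binding matrix protein, had 30.7 and 26.3 CPM and then 58.5 and 56.1 CPM, a fitted log2 change of 1.00 (standard error 0.18, edgeR adjusted p = 0.00453). Its replicates were close and its change lay at the 2-fold threshold.

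The other basement membrane genes that rose had low or unequal replicates. The matrix metalloprotease gene *Mmp2* had 75.2 and 52.9 CPM at 18 h APF and 163 and 93.3 CPM at 24 h APF. The collagen IV gene *Cg25C* had 2.09 and 4.76 CPM and then 6.70 and 7.65 CPM, and the peroxidasin gene *Pxn* had 4.83 and 3.36 CPM and then 12.5 and 7.14 CPM. *stl*, a secreted metalloprotease gene, had 2.09 and 0.560 CPM and then 5.15 and 4.59 CPM. Their edgeR adjusted p-values lay between 0.0181 and 0.0418 for *Pxn*, *stl* and *Mmp2*, with 0.049 for *Cg25C*. Of the 7 calls, 1 (*Sb*) was kept without replicate 1 at 24 h APF and 5 without replicate 2 at 24 h APF, and the calls lost without replicate 1 had adjusted p-values from 0.0441 to 0.401, the lowest being that of *BM-40-SPARC*, which fell short of 2-fold. Without replicate 1 or replicate 2 at 18 h APF 3 and 2 of the calls were kept.

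Basement membrane genes are also expressed by hemocytes and fat body, and markers of both were looked at in the same libraries. The 13 hemocyte markers summed to 284 CPM in both libraries at 18 h APF and to 170 and 167 CPM at 24 h APF. That sum was led by *vir-1*, which fell from 222 and 234 CPM to 80.2 and 86.2 CPM. The other markers did not share its fall: of 10 tested, 9 had a fitted change above 0, with a median log2 fold change of 0.45. *Hml* and *eater*, which define hemocytes, lay between 0.280 and 1.53 CPM in the 4 libraries. *Pxn* stands in both lists and was the 1 hemocyte marker past the test that rose. The 16 fat body markers summed to 251 and 173 CPM at 18 h APF and to 293 and 175 CPM at 24 h APF, with *Yp1*, *Lip3* and *fit* at no count in any of the 4. Of 11 tested, 8 had a fitted change above 0 and 3 below, with a median log2 fold change of 0.32. Only *Yp3* was past the test, and it rose (9.09% against 8.81% of all genes). The part of these cells in the changes of the basement membrane genes was not tested, and in bulk RNA a change in the number of cells of a type cannot be told apart from a change in RNA per cell.

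The integrin list had no gene past edgeR's test among 21 and none called by DESeq2 or by limma on RPKM, and 2 had an unadjusted p under 0.05. *mys*, the beta subunit common to the wing's integrins, had 200 and 143 CPM at 18 h APF and 189 and 169 CPM at 24 h APF (fitted log2 change 0.06, standard error 0.21, edgeR adjusted p = 0.883). *if*, the alpha subunit of the ventral surface, had 75.1 and 66.0 CPM and then 126 and 72.9 CPM (fitted log2 change 0.51, standard error 0.31, edgeR adjusted p = 0.31), and 566 and 567 CPM at 36 h APF. The groups overlapped for both genes.

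Of 29 genes of cadherins and adherens junctions 1 rose and none fell (3.45% past the test against 8.81% of all genes). *Cad89D* (FBgn0038439, arm 3R), a cadherin gene, went from 3.92 and 5.04 CPM at 18 h APF to 67.0 and 39.3 CPM at 24 h APF. The fitted log2 change was 3.62 (standard error 0.37, edgeR adjusted p = 0.000136), the highest of the 165 adhesion genes, and the call was kept with each library left out. Its level was 1285 and 979 CPM at 36 h APF. *shg*, which encodes E-cadherin, had 254 and 195 CPM and then 286 and 216 CPM, with overlapping groups (fitted log2 change 0.16, standard error 0.28, edgeR adjusted p = 0.756).

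Among 47 genes of immunoglobulin and leucine-rich adhesion proteins 3 rose and 1 fell (8.51% against 8.81% of all genes). *haf* (FBgn0261509, arm 2L), a leucine-rich repeat protein gene, rose from 15.02 and 16.2 CPM to 46.5 and 46.4 CPM (fitted log2 change 1.57, standard error 0.30, edgeR adjusted p = 0.00552), and the call was lost without replicate 1 at 18 h APF (0.0598). *Ama* (FBgn0000071, arm 3R), the secreted immunoglobulin protein Amalgam, fell from 31.0 and 38.3 CPM to 9.02 and 10.2 CPM (fitted log2 change −1.87, standard error 0.30, edgeR adjusted p = 0.00223), and the call was lost without replicate 1 at 24 h APF (0.0512). For both genes the replicates differed little beside the gap between the timepoints.

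The ligand gene *sli* and the receptor gene *lea* (robo2), a pair known from axon guidance, were both past the test with unequal replicates. *sli* had 98.9 and 84.8 CPM at 18 h APF and 251 and 127 CPM at 24 h APF, and *lea* 75.5 and 66.3 CPM and then 213 and 97.4 CPM. For both genes the gap between the replicates at 24 h APF was larger than the gap from replicate 2 there to the libraries at 18 h APF, and both calls were kept without replicate 2 at 24 h APF and lost without replicate 1 at 24 h APF (edgeR adjusted p = 0.389 and 0.371) or without either library at 18 h APF (0.121 to 0.21). The septate junction list had 1 riser among 25 (4.0% past the test against 8.81% of all genes). It was *moody*, with 4.18 and 3.64 CPM and then 14.9 and 5.61 CPM. This G protein-coupled receptor is known from glia, whose defining marker *repo* lay between 1.96 and 3.09 CPM in the 4 libraries. The 9 glial markers, *moody* among them, summed to 58.8 and 45.3 CPM at 18 h APF and to 81.3 and 52.5 CPM at 24 h APF. All 8 tested had a fitted change above 0 (median log2 fold change 0.52), and only *moody* was past the test. The part of glia in these changes was not tested. The call of *moody* was lost without replicate 1 at 24 h APF and without either library at 18 h APF. Of the 14 adhesion genes past the test, 2 (*Cad89D* and *Sb*) kept their calls with each of the 4 libraries left out, 3 were kept without replicate 1 at 24 h APF, and 12 were kept without replicate 2 at 24 h APF, where 22 adhesion genes rose. Without replicate 1 or replicate 2 at 18 h APF 6 and 5 were kept. *wb*, *Mmp2*, *Pxn*, *Sb*, *Ama*, *haf*, *sli*, *lea* and *moody* overlap an annotated gene on the opposite strand.

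**Figure D3:**
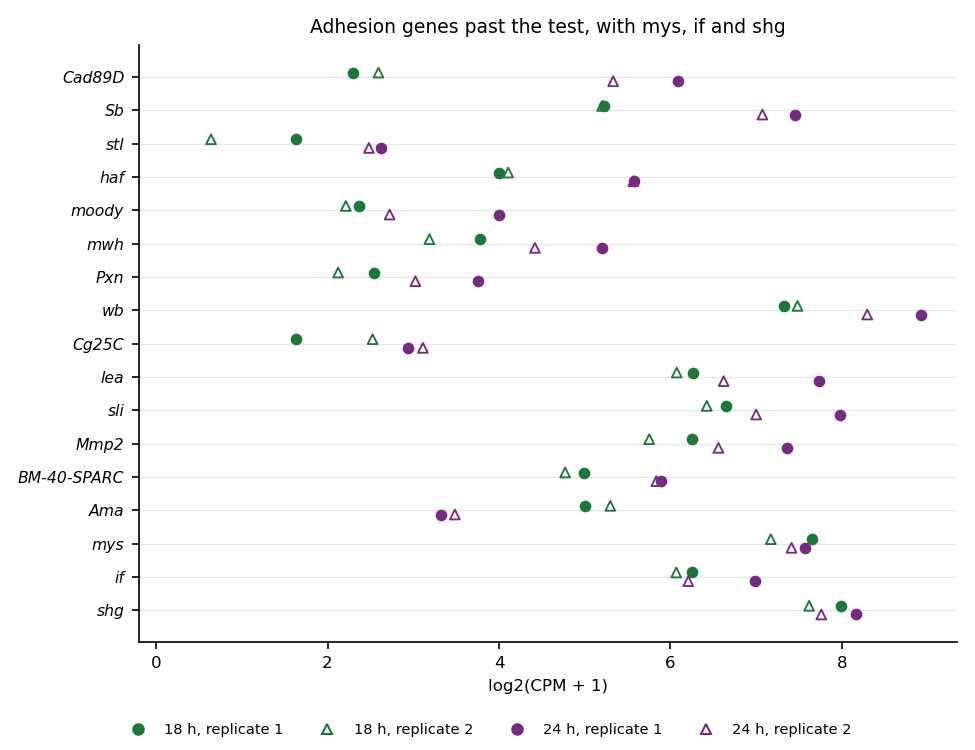
Levels, as log2(CPM + 1) (x axis), of the 14 adhesion genes past the test and of *mys*, *if* and *shg* (rows) at 18 h APF (green) and 24 h APF (purple). Filled circles are replicate 1 and open triangles replicate 2; *Cad89D* and *Sb* show the widest gaps between timepoints, and for *wb*, *lea*, *sli*, *Mmp2* and *moody* the circle at 24 h APF lies well to the right of the triangle.

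Few vein genes were past the test, and none of the 25 EGF receptor signalling genes was past edgeR's test or called by DESeq2 or by limma on RPKM, while 7 had an unadjusted p under 0.05. *rho*, the protease that activates EGF receptor ligands in vein cells, had 47.0 and 35.3 CPM at 18 h APF and 64.7 and 71.9 CPM at 24 h APF (fitted log2 change 0.72, standard error 0.23, edgeR adjusted p = 0.0631). The groups did not overlap. *kni*, the transcription factor of the second longitudinal vein, had 12.7 and 17.4 CPM and then 16.7 and 15.8 CPM, with groups that overlapped (fitted log2 change 0.15, standard error 0.36, edgeR adjusted p = 0.829).

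On the intervein side *bs* rose. *bs* (FBgn0004101, arm 2R) encodes the fly serum response factor, which sets intervein fate. It was the 1 gene past the test among 27 vein and intervein transcription factors (3.7% against 8.81% of all genes). It had 135 and 86.8 CPM at 18 h APF and 326 and 198 CPM at 24 h APF, that is, a fitted log2 change of 1.24 (standard error 0.30, edgeR adjusted p = 0.0181). The groups did not overlap, and replicate 1 was the higher library at both timepoints. The call was lost without replicate 2 at 18 h APF (edgeR adjusted p = 0.16) or without replicate 1 at 24 h APF (0.178). At 36 h APF the mean level was 203 CPM and at 44 h APF 110 CPM.

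A pair of extracellular BMP regulators rose among 23 genes of that list, and none fell (8.7% against 8.81% of all genes). *sog* (FBgn0003463, arm X), a BMP antagonist expressed in intervein cells, had 192 and 237 CPM at 18 h APF and 546 and 428 CPM at 24 h APF (fitted log2 change 1.19, standard error 0.31, edgeR adjusted p = 0.0286). *cv-2* (FBgn0000395, arm 2R), a BMP-binding protein gene needed for crossveins, had 29.9 and 22.9 CPM and then 71.0 and 49.5 CPM (fitted log2 change 1.19, standard error 0.28, edgeR adjusted p = 0.0153). Both calls were kept without replicate 2 at 24 h APF and lost with any other library left out, at adjusted p-values from 0.0538 to 0.185.

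In the Notch list 4 of 31 genes fell and 1 rose (16.1% past the test against 8.81% of all genes). The 4 are targets of Notch and proneural proteins rather than parts of the receptor. Other listed genes of the same families, among them *E(spl)m3-HLH*, *E(spl)mbeta-HLH* and *Tom*, were not past the test. Of the 31 genes 21 had a fitted change above 0, with a median log2 fold change of 0.17. The bHLH repressor genes *E(spl)m8-HLH* (7.97 and 11.5 CPM, then 1.42 and 1.53 CPM) and *E(spl)mgamma-HLH* (9.53 and 10.9 CPM, then 4.12 and 3.06 CPM) had fitted log2 changes of −2.70 and −1.42 (standard errors 0.41 and 0.43, edgeR adjusted p = 0.00166 and 0.0488). The Bearded family genes *Brd* and *E(spl)m4-BFM*, whose products hold back the ubiquitin ligase Neuralized, also fell. *Brd* went from 14.5 and 18.5 CPM to 3.22 and 5.10 CPM (fitted log2 change −2.098, standard error 0.35, edgeR adjusted p = 0.00363). *E(spl)m4-BFM* had 3.92 and 4.76 CPM at 18 h APF and 0.258 and 0 CPM at 24 h APF, where it was at or under the floor, and was at least 2.84-fold lower there. The 4 genes were lower in both libraries at 24 h APF than in either at 18 h APF. All 4 calls were lost without replicate 1 at 24 h APF (edgeR adjusted p from 0.053 to 0.187), and *E(spl)mgamma-HLH* lost its call with any library left out (0.14 to 0.187).

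*Dl*, the Notch ligand Delta, had 212 and 189 CPM and then 222 and 186 CPM, with groups that overlapped (fitted log2 change 0.02, standard error 0.21, edgeR adjusted p = 0.968). The rest of the Notch list showed 1 rise, that of the coactivator gene *mam* (91.9 and 118 CPM, then 272 and 197 CPM, edgeR adjusted p = 0.0173). In the list of Hedgehog and Wnt signalling, 1 ligand gene rose and 1 fell among 32 genes (6.25% against 8.81% of all genes). *Wnt4* went from 51.1 and 46.7 CPM to 129 and 94.8 CPM (fitted log2 change 1.1997, standard error 0.34, edgeR adjusted p = 0.0385), and *Wnt6* from 23.8 and 22.1 CPM to 10.3 and 6.12 CPM (fitted log2 change −1.38, standard error 0.28, edgeR adjusted p = 0.00752). *mam* and *Wnt4* kept their calls without replicate 2 at 24 h APF and lost them with any other library left out (edgeR adjusted p from 0.0614 to 0.236), and *Wnt6* lost its call without replicate 1 at 18 h APF (0.0548). Of the 10 vein genes past the test none kept its call with each library left out, 1 (*Wnt6*) was kept without replicate 1 at 24 h APF and 9 without replicate 2 there. *bs*, *rho*, *mam* and *Wnt4* overlap an annotated gene on the opposite strand.

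The proneural genes *ac* and *sc*, which select sense-organ precursors, were not past the test. *ac* had 25.2 and 28.5 CPM at 18 h APF and 27.0 and 28.6 CPM at 24 h APF (fitted log2 change 0.05, standard error 0.29), and *sc* had 32.1 and 31.1 CPM and then 39.0 and 40.3 CPM (0.32, standard error 0.21, edgeR adjusted p = 0.338). The groups overlapped for *ac* and lay close together for *sc*. At 36 h APF they were at means of 1.28 and 2.02 CPM. *sens*, a zinc finger gene of the precursor itself, had 2.61 and 1.68 CPM and then 1.03 and 0 CPM (fitted log2 change −1.49, standard error 0.65, edgeR adjusted p = 0.153), close to the floor at 24 h APF. Of 23 proneural and precursor genes none rose and 2 fell (8.7% against 8.81% of all genes), and both are the Bearded family genes above.

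Of 26 genes of asymmetric division and sense-organ fate 4 fell and 3 rose (26.9% past the test against 8.81% of all genes). The genes that fell act in the dividing precursor and its daughters. *pon* (FBgn0025739, arm X), the adaptor that places Numb at one pole of the dividing cell, had 33.6 and 26.3 CPM at 18 h APF and 7.21 and 6.63 CPM at 24 h APF, that is, a fitted log2 change of −2.099 (standard error 0.35, edgeR adjusted p = 0.00269). *mira* (FBgn0021776, arm 3R), the adaptor of Prospero, had 9.53 and 9.80 CPM and then 1.80 and 0.510 CPM, a fitted log2 change of −2.73 (standard error 0.58, edgeR adjusted p = 0.00934). Both genes were several-fold lower in each library at 24 h APF. *ham*, a zinc finger gene of the neuron and sheath lineage, had 13.3 and 9.80 CPM and then 2.19 and 3.57 CPM, and *spdo*, a regulator of Notch in the daughters, 10.4 and 8.68 CPM and then 4.25 and 1.53 CPM (edgeR adjusted p = 0.00509 and 0.049).

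The rises in this list were *nompA*, *insc* and *Abl*. *nompA* (FBgn0016047, arm 2R), a zona pellucida domain protein that ties the sensory dendrite to the cuticle, had 11.8 and 9.24 CPM at 18 h APF and 63.5 and 24.5 CPM at 24 h APF (fitted log2 change 2.11, standard error 0.39, edgeR adjusted p = 0.00483). *insc*, an orienting factor of asymmetric division, had 1.83 and 1.40 CPM and then 7.34 and 3.57 CPM, and the tyrosine kinase gene *Abl* had 23.8 and 16.2 CPM and then 53.3 and 27.5 CPM. In each of the 3 genes replicate 1 at 24 h APF was about 2-fold or more above replicate 2. None of the 7 calls was kept without replicate 1 at 24 h APF (edgeR adjusted p from 0.0509, for *pon*, to 0.495, for *Abl*), and 6 were kept without replicate 2. Without either library at 18 h APF 2 of the 7 were kept.

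Genes of the bristle shaft and hair cytoskeleton rose in 5 of 29 cases and fell in none (17.2% against 8.81% of all genes). Besides *Sb* they were *ena*, an actin elongation factor gene, *cher*, which encodes filamin, and the wing hair genes *sha* and *mwh*. *ena* (FBgn0000578, arm 2R) had 70.01 and 40.6 CPM at 18 h APF and 204 and 107 CPM at 24 h APF, that is, a fitted log2 change of 1.49 (standard error 0.37, edgeR adjusted p = 0.0204). *sha* (FBgn0003382, arm 2R) had 18.3 and 13.4 CPM and then 48.4 and 40.8 CPM, a fitted log2 change of 1.48 (standard error 0.35, edgeR adjusted p = 0.0163). *mwh*, which limits each cell to a single hair, had 12.7 and 8.12 CPM and then 35.9 and 20.4 CPM, and *cher* 26.6 and 20.4 CPM and then 77.4 and 41.3 CPM (edgeR adjusted p = 0.0128 and 0.0103). For *sha*, *mwh* and *cher* the levels at 24 h APF were early in a longer rise, with 1039 and 817, 559 and 494, and 558 and 452 CPM at 36 h APF, whereas *ena* was at 59.1 and 46.6 CPM there. All 4 calls were kept without replicate 2 at 24 h APF, and all 4 were lost without replicate 1 (edgeR adjusted p from 0.124 to 0.219) or without replicate 2 at 18 h APF (0.102 to 0.171), and that of *sha* also without replicate 1 at 18 h APF (0.0652).

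Genes of neuronal differentiation had a median log2 fold change of 0.61. Of 31 tested, 4 rose and 1 fell (16.1% past the test against 8.81% of all genes). *Rim*, an active zone gene, had 0.653 and 1.68 CPM and then 6.70 and 3.57 CPM, and *jeb*, the secreted ligand of Alk, 3.00 and 2.52 CPM and then 9.92 and 7.65 CPM. *Appl*, the fly amyloid precursor protein gene, had 23.5 and 21.8 CPM and then 52.3 and 42.8 CPM, and the GABA receptor gene *Rdl* 2.35 and 3.64 CPM and then 6.31 and 5.61 CPM. The edgeR adjusted p-values were 0.0206, 0.0246, 0.00598 and 0.032. The sodium channel gene *ppk* had 3.396 and 3.64 CPM at 18 h APF and 0.258 and 0.510 CPM at 24 h APF, at least 2.30-fold lower. The 42 genes of the list summed to 2186 and 2175 CPM at 18 h APF and to 2660 and 2635 CPM at 24 h APF, with *Gad1*, *Orco* and *Ir76b* at no count in any of the 4. That sum was led by *stai* (1011 and 981 CPM, then 884 and 1044 CPM). *CadN*, also an adhesion gene, had 364.5 and 327.2 CPM and then 565.3 and 492.5 CPM. *elav* had 74.05 and 69.41 CPM and then 102.7 and 104.0 CPM. None of these was past the test. Of the 31 tested, 25 had a fitted change above 0 and 6 below. None of the 5 calls was kept without replicate 1 at 24 h APF (edgeR adjusted p from 0.0767 to 0.288), and all 5 were kept without replicate 2. Without replicate 1 or replicate 2 at 18 h APF 1 and 2 were kept. *nompA*, *mwh*, *cher*, *Rim*, *ac* and *sc* overlap an annotated gene on the opposite strand.

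**Figure D4:**
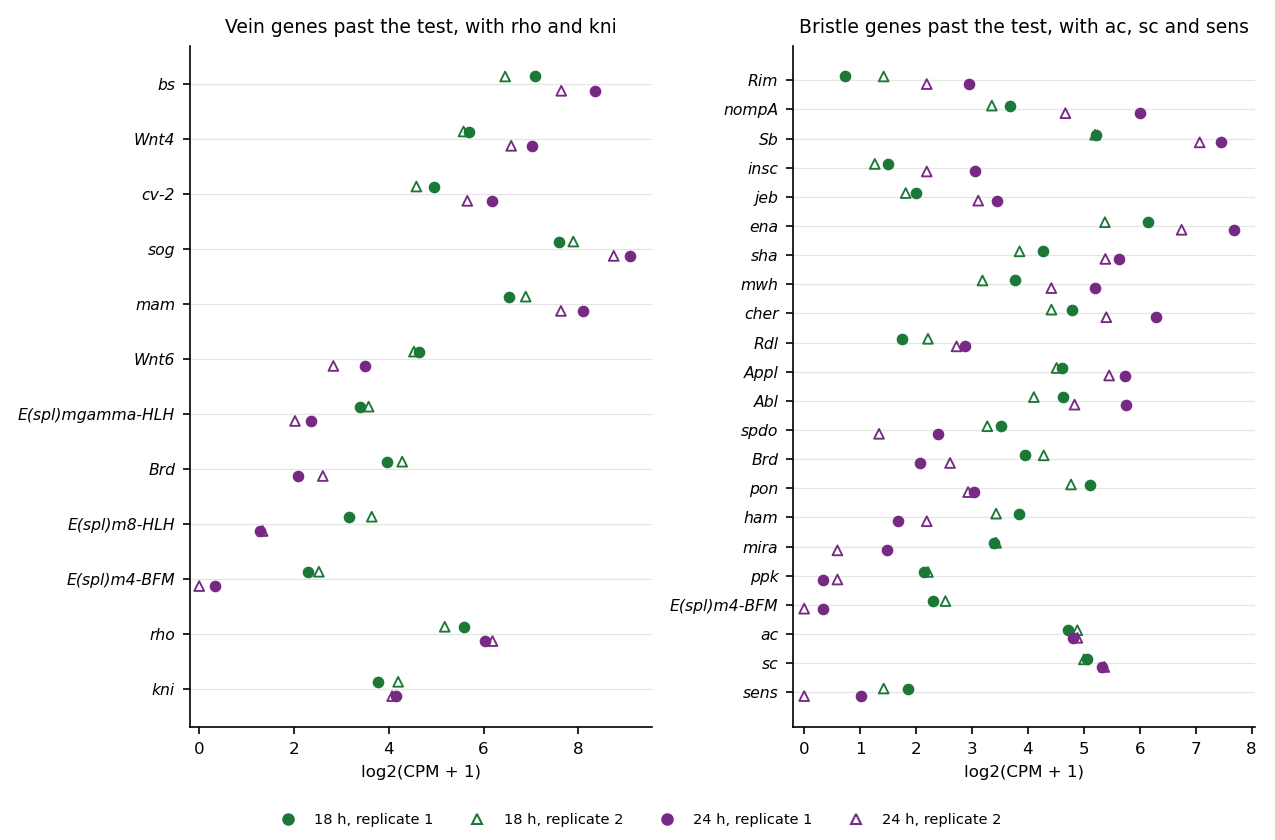
Levels, as log2(CPM + 1) (x axis), of the vein genes (left) and bristle genes (right) past the test, with *rho*, *kni*, *ac*, *sc* and *sens*, at 18 h APF (green) and 24 h APF (purple). Filled circles are replicate 1 and open triangles replicate 2. The targets *Brd*, *E(spl)m8-HLH* and *E(spl)m4-BFM* lie to the left at 24 h APF. So do *pon*, *ham* and *mira*, of the list of asymmetric division and sense-organ fate. The symbols of *ac* and of *kni* overlap.

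The apical matrix genes had the largest share of rises of the lists outside the cell cycle. As the lists were chosen with earlier results of these data known, this rank is a description and was not tested. Zona pellucida domain proteins link the apical membrane to the overlying matrix. Of 15 genes of that list 6 rose and 1 fell (46.7% past the test against 8.81% of all genes). The median log2 fold change was 1.06, with 12 of the 15 above 0 and 3 below, down to −1.34. *mey* (FBgn0039851, arm 3R) had 33.0 and 28.8 CPM at 18 h APF and 380 and 224 CPM at 24 h APF, that is, a fitted log2 change of 3.29 (standard error 0.29, edgeR adjusted p = 5.78e-05). *tyn* (FBgn0284435, arm X) had 320 and 267 CPM and then 1606 and 1613 CPM (fitted log2 change 2.45, standard error 0.47, edgeR adjusted p = 0.00571). Both groups stood far apart beside the gap between replicates. *nyo* had 46.6 and 34.1 CPM and then 157 and 111 CPM, and *dy*, named for its small dark wings, 8.75 and 11.5 CPM and then 34.6 and 53.0 CPM (edgeR adjusted p = 0.0129 and 0.0218).

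The rises of *mey*, *tyn*, *nyo* and *dy* were early parts of larger ones. At 36 h APF *mey* was at 2389 and 2183 CPM, *tyn* at 8842 and 8641 CPM, *nyo* at 1384 and 1245 CPM and *dy* at 7224 and 8280 CPM. *mey* kept its call with each library left out, whereas *tyn* lost it without replicate 2 at 18 h APF (edgeR adjusted p = 0.0705), *nyo* with any but replicate 2 at 24 h APF (0.0577 to 0.12) and *dy* with any (0.0619 to 0.16).

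Genes of chitin synthesis and cuticle assembly had a median log2 fold change of −0.24. Among 32 tested there were 1 rise and 2 falls (9.38% past the test against 8.81% of all genes). *e*, the ebony gene of cuticle tanning, had 0.261 and 0.560 CPM at 18 h APF and 4.12 and 4.59 CPM at 24 h APF, at least 5.19-fold higher, and kept its call with each library left out. *knk*, needed to organise chitin, had 197 and 244 CPM and then 102 and 102 CPM, and the chitin-binding protein gene *obst-B* 256 and 298 CPM and then 102 and 108 CPM (edgeR adjusted p = 0.00583 and 0.0321). Both libraries at 24 h APF were close to one another and below those at 18 h APF. *knk* lost its call without replicate 2 at 18 h APF (edgeR adjusted p = 0.058) or replicate 1 at 24 h APF (0.0604), and *obst-B* with any library left out (0.0909 to 0.18). *tyn* and *knk* overlap an annotated gene on the opposite strand.

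**Figure D5:**
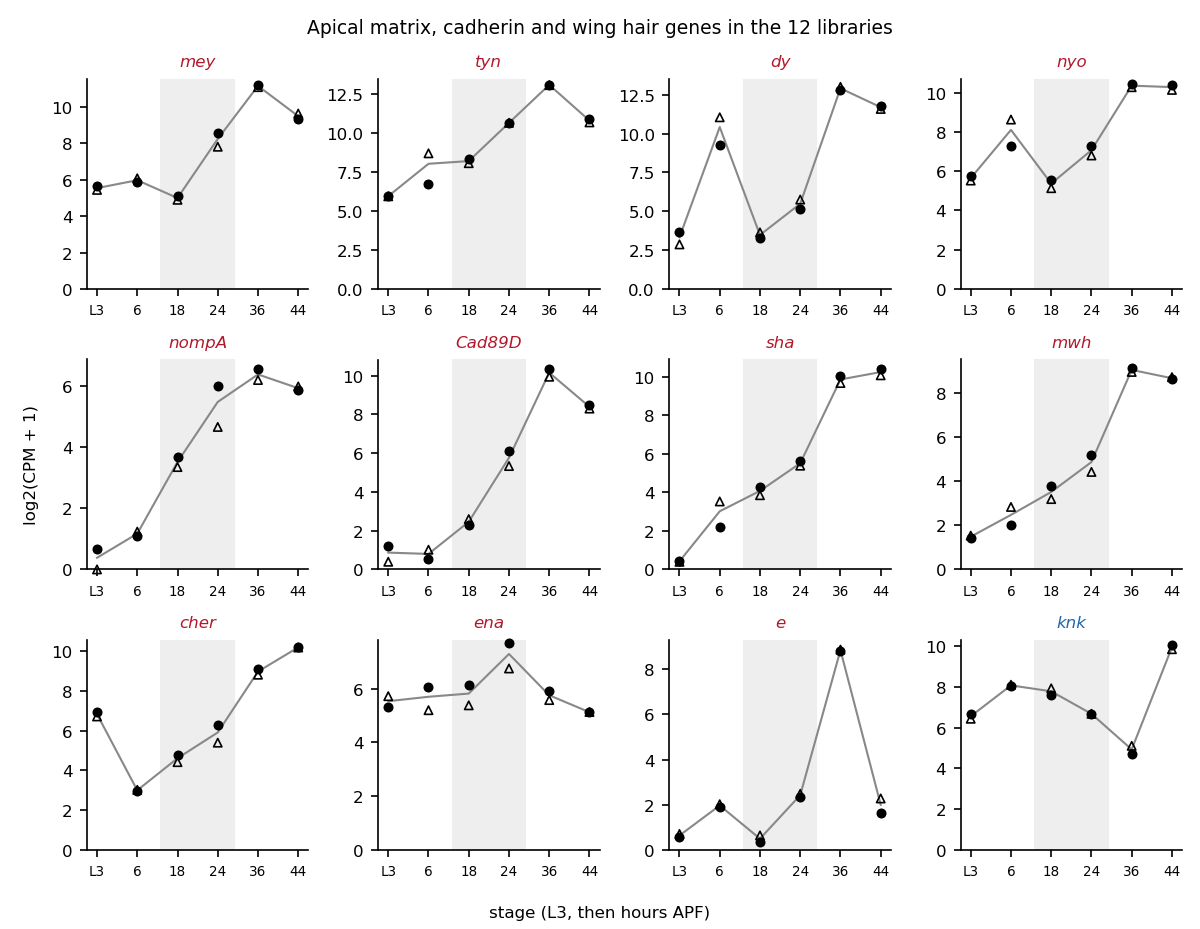
Levels, as log2(CPM + 1) (y axis), of 12 genes of the apical matrix, adhesion, wing hair and cuticle lists in the 12 libraries by stage (x axis). Filled circles are replicate 1, open triangles replicate 2 and lines the mean of both; the band marks 18 and 24 h APF, and red and blue titles are genes past the test that rose or fell. *mey*, *tyn*, *dy*, *Cad89D* and *e* went on rising to 36 h APF, whereas *ena* had its highest level at 24 h APF.

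Most genes that rose went on rising. Of the 309 genes that rose between 18 and 24 h APF, 223 (72.2%) had a higher mean at 36 h than at 24 h APF, and 147 had their highest mean of the 6 stages at 36 h APF, 63 at 44 h APF and 59 at 24 h APF. Of all genes tested 48.1% had a higher mean at 36 h than at 24 h APF. Of the 437 genes that fell, 83 (19.0%) had a higher mean at 36 h than at 24 h APF, and 236 had their lowest mean at 36 h APF. The 24 h libraries enter both intervals, so that these counts are a description.

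The largest fitted rises, of all genes past the test with replicates apart and at least 5 CPM in both 24 h libraries, included *Pu*, *Osi22*, *fru* and *Spn100A*. *Pu* (FBgn0003162, arm 2R), the GTP cyclohydrolase of pteridine and biopterin synthesis, had 0.784 and 0.560 CPM at 18 h APF and 25.5 and 28.6 CPM at 24 h APF (fitted log2 change 5.19, standard error 0.34, edgeR adjusted p = 2.26e-05). *Osi22* (FBgn0038133, arm 3R), of the Osiris family of cuticle-related transmembrane proteins, had 5.75 and 9.52 CPM and then 210 and 164 CPM, ahead of 22349 and 16564 CPM at 36 h APF. *Spn100A* (FBgn0039795, arm 3R), a serpin gene, had 191 and 170 CPM and then 2745 and 2456 CPM. Replicates of these genes agreed to within a small part of the change, and all 3 calls were kept with each library left out. *fru* (FBgn0004652, arm 3R), a BTB zinc finger gene, had 2.87 and 6.16 CPM and then 87.6 and 63.2 CPM, and its call was lost without replicate 1 at 18 h APF (edgeR adjusted p = 0.0656). *IM4*, an immune-induced peptide gene, and *Cpr73D*, a cuticle protein gene, were at or under the floor at 18 h APF and were at least 10.7-fold and 11.3-fold higher at 24 h APF.

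Among genes past the test with replicates apart and at least 5 CPM in both 18 h libraries, the largest fitted fall was that of *CG3036* (FBgn0031645, arm 2L), from 1399 and 1074 CPM at 18 h APF to 35.4 and 35.7 CPM at 24 h APF, that is, a fitted log2 change of −5.12 (standard error 0.35, edgeR adjusted p = 2.26e-05). It was at 17.1 and 13.3 CPM at 36 h APF and back at 934 and 881 CPM at 44 h APF. *Buffy* (FBgn0040491, arm 2R), a member of the Bcl-2 family, had 24.8 and 27.4 CPM and then 1.55 and 1.53 CPM (fitted log2 change −4.05, standard error 0.29, edgeR adjusted p = 2.26e-05), and it too was higher again at 44 h APF, with 154 and 125 CPM. *CG11852* (FBgn0039297, arm 3R), now named *Jhbp7* as a juvenile hormone binding protein gene, had 372 and 702 CPM and then 29.4 and 31.1 CPM, and the cytochrome P450 gene *Cyp310a1* had 69.0 and 81.2 CPM and then 3.74 and 6.63 CPM. These 4 calls were kept with each library left out. The 15 largest falls chosen in this way also held the replication genes *Orc2*, *Mcm5* and *Claspin* and the mitotic gene *sub*. *Orc2* had 13.7 and 14.6 CPM at 18 h APF and a level at least 9.24-fold lower at 24 h APF. *Pu*, *Cpr73D*, *CG3036*, *Buffy*, *Cyp310a1*, *Orc2* and *sub* overlap an annotated gene on the opposite strand.

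Of 23 markers of muscle, which is attached near the wing hinge, 3 were past the test, against 8.81% of all genes. The 23 muscle markers summed to 401 and 478 CPM at 18 h APF and to 501 and 441 CPM at 24 h APF, with 1 rise (*sls*) and 2 falls (*Mef2* and *Act57B*). That sum was led by *sls*, which rose from 160.4 and 199.5 CPM to 391.9 and 334.0 CPM. The other markers did not share its rise as a set: of the 23, 9 had a fitted change above 0 and 14 below. *Mlc2* went from 64.9 and 88.2 CPM to 24.2 and 28.0 CPM, and was not past the test. Nor was *Act88F*, with 28.5 and 25.2 CPM and then 6.955 and 3.57 CPM. *Mef2*, which defines the lineage, had 95.2 and 79.8 CPM and then 35.2 and 25.5 CPM, and *Mhc* lay between 0.258 and 1.53 CPM. The calls of *sls* and *Mef2* were lost with any of the 4 libraries left out. That of *Act57B* was lost without replicate 2 at 18 h APF or without replicate 1 at 24 h APF. The part of muscle cells in any of the changes above was not tested.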

How the data were processed

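RNAseq of wings gave 12 libraries. Alignment by the authors was to dm3 (TopHat2 2.1.0) and the deposited counts are raw reads per gene from HTSeq 0.6.1. The deposited RPKM values, made by the authors with edgeR, served 1 alternative; 2 RPKM columns named for no sample were left aside. Lines for reads on no single gene held 44.0 to 65.0% of the records in the 4 libraries and were left out of library sizes. Counts were TMM-scaled, and the 8469 of 15240 genes with a log2 CPM (prior count 2) above 2 in at least 1 library were fitted with edgeR 4.0.16 (R 4.3.3, prior count 0.125, quasi-likelihood F test, a term for each of 6 timepoints, all 12 libraries), with Benjamini-Hochberg adjustment of the 24 h minus 18 h contrast. Standard errors are the fitted change over the root of F. Where neither library of a timepoint had more than 3 counts of a gene, its change is given as a bound, the mean of the other timepoint over the larger floor. Steps were tested on simulated data. The members and lists were chosen with earlier results of these data known, so lists are described by counts and medians with no test. Named genes are list members past the test, 16 genes named in any case, and the 15 largest rises and falls past the test with replicates apart and at least 5 CPM in both libraries of the higher timepoint, of which the text gives some. Identifiers, arms and overlaps come from the BDGP6 annotation, matched for 14976 genes; its coordinates were not used. Alternatives used limma 3.58.1 and DESeq2 1.42.0. Promoter motifs were not analysed here.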

Additional observations from a re-analysis of the deposited data

How the results depend on the processing

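Counts of genes past the test depended most on how a change was required to exceed 2-fold and on single libraries. Against 746 genes, 309 higher and 437 lower, a test for changes beyond 2-fold (glmTreat) called 166, 52 and 114, and limma on log2(RPKM + 1) called 94 higher and 566 lower. A 2-fold rule that ignores replicate error, which needs no p-value, passed 1148 genes, 533 higher and 615 lower. With a 1.5-fold or no fold threshold 657 were lower. With one library left out in turn the total ranged from 304 to 772, the higher genes from 101 to 390 and the lower from 203 to 382, and 221 of the 746 calls were kept in all 4. The other settings (size factors, library size, filterByExpr, no filter, prior count, the 4 libraries alone, DESeq2, thinning) gave 612 to 963.

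For hormone genes (7 higher, 4 lower) no filter on low counts gave 11 and 8, the 4 libraries alone gave 8 lower, glmTreat gave 3 and 1, RPKM gave 3 higher, and the 2-fold rule gave 12 and 8. For adhesion genes (13 and 1) glmTreat gave 2 and 0 and RPKM 2 and 2. For vein genes (5 and 5) glmTreat gave 0 and 2 and RPKM 0 and 8. For bristle genes (12 and 7) glmTreat gave 1 and 2, RPKM gave 1 higher, and the 2-fold rule gave 11 lower. Leaving out a library gave 2 to 6 hormone genes higher and 2 to 3 lower, 3 to 22 adhesion genes higher and 0 to 1 lower, 0 to 8 vein genes higher and 1 to 4 lower, and 1 to 14 bristle genes higher and 0 to 6 lower. The cause of these differences was not tested.

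The log2 fold changes that turned below 0 were of genes not past the test. On RPKM they were *usp* −0.0726, *kni* −0.192, *Dl* −0.368, *ac* −0.326, *sc* −0.0542, *mys* −0.306 and *shg* −0.228. With library size alone *Dl* was −0.0377, *ac* −0.011 and *mys* −0.000369, and *Dl* was −0.0026 in the 4 libraries alone and −0.0177 after thinning. With one library left out *usp* ranged from −0.00877 to 0.58, *kni* from −0.0838 to 0.369, *Dl* from −0.113 to 0.149, *ac* from −0.0433 to 0.136, *mys* from −0.154 to 0.327 and *shg* from −0.0588 to 0.365.

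The replicate numbers are shared by the timepoints, but 2 pairs that share only a number do not show pairing: deviations of same-numbered libraries correlated at 0.16 across genes. A fit with the replicate block called 765 genes, and it ended the calls of 2 of the 112 named genes, with *Cg25C* at an edgeR adjusted p of 0.0563. The smallest library, with 1659208 reads on genes, sets the highest floor of the 4, 1.53 CPM, and levels below it rest on fewer than 3 counts there. The planned search of promoters for motifs was not run.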
